A study of Mus musculus with 20 samples.

Results

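Of 41174 non-control probes on the arrays, 149 (0.362%) were newly detected after wild-type injury. Members were selected on the scanner software's mark for signal clearly over background, which a probe had to carry on 4 or more of the 5 WT-injury arrays, on 0 or 1 of the 5 WT-control arrays and on fewer than 10 of all 20 arrays. The wild-type values that follow therefore describe the choice and were not tested. The KO arrays entered the choice only through the limit on the total, which left a member at most 5 detections over the 10 KO arrays.

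The arrays measured RNA from whole C57/Bl6 mouse tracheas in 4 groups of 5, labelled with an age of 4 months. WT-control and KO-control animals were uninjured. WT-injury and KO-injury animals had received 2% polidocanol, a detergent that strips the tracheal lining, into the airway 3 days before collection. KO animals carried a germline deletion of Myd88, were bred KO to KO and came from a different colony than the wild types, so that genotype and colony cannot be told apart. The 4 groups were spread evenly over 5 slides, whose number is the replicate number used here. The paper describes the 5 samples of each group as biological replicates. The labels do not tie arrays to individual animals, so the p-values measure the spread between these samples. In whole tissue, fewer cells of a type and less RNA per cell cannot be told apart.

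Levels are given as log2 signal relative to the 75th percentile of the same array, so that 0 is the signal at that percentile and negative values are dimmer. Between 57.5% and 67.8% of spots were well above background per array, with the lowest share on KO-injury array 5. The Myd88 probe was detected on all 20 arrays (WT-control 2.08 ± 0.14, KO-control 1.86 ± 0.17, SD, n = 5), and the sources used here do not say whether it lies in the deleted part, so that it does not check the genotype. All 24 airway secretory and ciliated marker genes were detected on at least 4 WT-control arrays. KO-injury array 5 stood apart from its group: the summed signal of 58 cell cycle genes was 24.5 times the array's 75th percentile there, within the 16.6 to 30.4 of the KO-control arrays, against 84.0 to 162 on the other 4 KO-injury arrays. The summed signal of the airway secretory and ciliated genes was 3192 on that array, within the 2784 to 4470 of the KO-control arrays, against 1590 to 2445 on the other KO-injury arrays. Whether the injury was equally severe in all KO-injury animals was not tested, and every KO-injury mean includes array 5 unless stated. The summed signal of 33 chemokines was 53.7 to 76.7 on KO-injury arrays 1, 3 and 5, within the KO-control range of 51.3 to 81.9, and 169 and 219 on arrays 2 and 4. Slides 1 and 5 were scanned on a different day than slides 2, 3 and 4.

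Myd88 is the adaptor that couples most Toll-like receptors and the interleukin-1 receptor family to NF-kB, the transcription factor family that switches on inflammatory genes. Injury of the airway lining brings in neutrophils and monocytes, drawn by chemokines such as Cxcl2 and sustained by growth factors such as Csf2, and the surviving epithelial cells divide to close the wound. Transcripts of both programmes can lie below the detection limit of an array in resting trachea.

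The 149 probes carried 125 gene symbols on 129 probes, and 20 probes kept the name of the array design. Sorted by hand by known function, after their values were known, 23 probes belonged to leukocyte receptors and regulators, 21 to cell cycle and DNA replication or repair, 9 to secreted cytokines, chemokines and growth factors, 7 to proteases and matrix proteins, 6 to adhesion, junction and cell surface ligands, 4 to cytokine receptors and their signalling, 4 to acute phase and plasma proteins, and 3 to the centriole and cilium. The other 72 fell in no such class or had no gene name. Of all members, 53 were detected on all 5 WT-injury arrays and 32 of these on no WT-control array. Newly detected is a property of the probe: 48 of 70 member genes with a further probe had one that was detected on at least 4 WT-control arrays, and 55 member genes had no other probe.

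**Figure D1:**
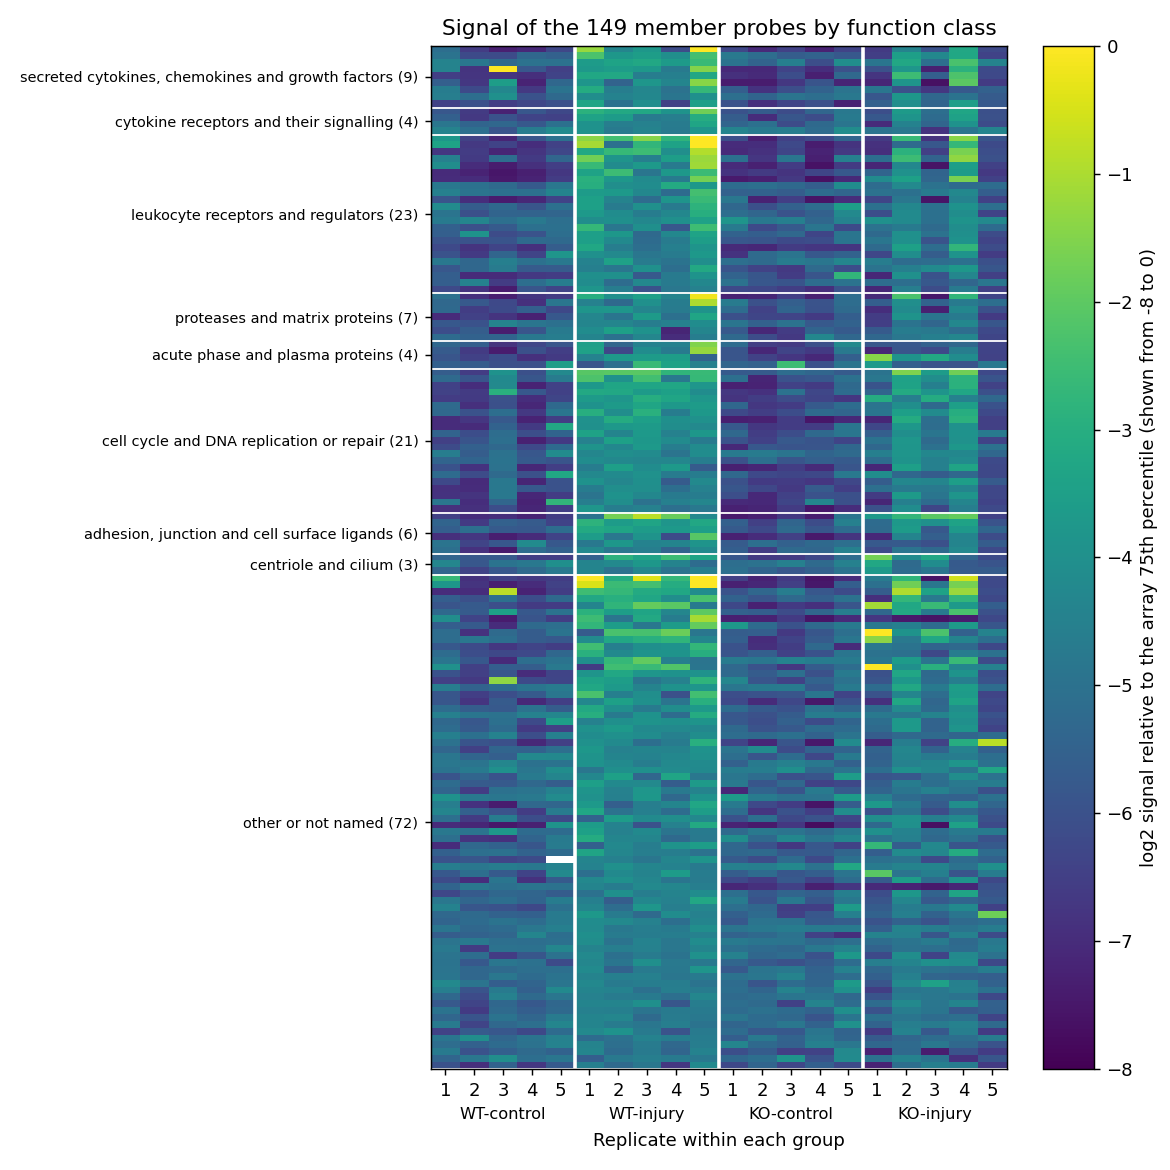
Log2 signal relative to the array's 75th percentile (colour, shown from -8 to 0) of the 149 member probes (rows, by function class and then by mean WT-injury level) on the 20 arrays (columns, replicates 1 to 5 of each group; white marks 1 spot left out as an outlier). The WT-injury columns and KO-injury columns 2 and 4 are bright over most rows, while KO-injury column 5 resembles the control columns.

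Members were unevenly detected among the KO-injury arrays. KO-injury arrays 1 to 5 detected 26, 127, 74, 119 and 3 of the 149 members, and KO-control arrays 1 to 5 detected 24, 5, 2, 26 and 28. For comparison, the WT-injury arrays detected 135, 139, 129, 104 and 142, and the WT-control arrays 14, 3, 34, 7 and 8, both fixed by the choice. KO-injury arrays 2 and 4 thus came within the WT-injury range, array 3 lay between the groups, and arrays 1 and 5 lay within or near the KO-control range. The median level of the members was -5.44, -4.31, -5.15, -4.24 and -6.02 on KO-injury arrays 1 to 5 and -5.91 to -5.16 on the KO-control arrays, so that array 3 lay just above the KO-control range, array 1 within it and array 5 below it. Over all probes, the KO-injury arrays detected 61.9%, 64.7%, 66.5%, 64.5% and 56.8%, against 58.3% to 67.2% on the KO-control arrays. Counts of dim probes also depend on the detection limit, which differed between arrays. The lowest signal well above background was 23.8, 20.7, 23.1, 23.7 and 28.3 on KO-injury arrays 1 to 5. Their 75th percentiles were 748, 789, 972, 928 and 589, so that the relative limit was highest on array 5. How far the counts follow this limit was not tested.

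**Figure D2:**
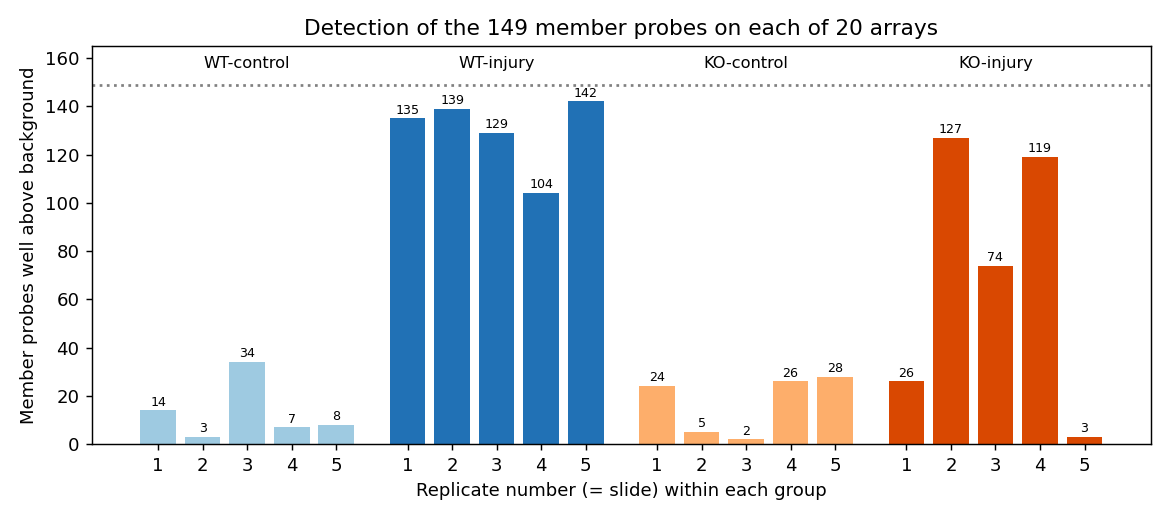
Number of the 149 member probes that were well above background (vertical axis) on each array (bars, replicates 1 to 5 of each group; dotted line, 149). KO-injury arrays 2 and 4 reach 127 and 119 members, whereas arrays 1 and 5 reach 26 and 3.

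Counted by member, 121 probes were detected on more KO-injury than KO-control arrays, 21 on as many and 7 on fewer. By number of KO-injury arrays, 7 members were detected on none, 14 on 1, 58 on 2, 61 on 3, 9 on 4 and none on all 5, whereas 86 members were detected on no KO-control array. For these counts no share over all probes was computed, so that they only describe the members. Low KO-control counts are partly built in, since the limit on the total set aside 38 probes detected on at least 4 KO-control arrays. Only 9 members (6.04%) met the wild-type criterion in the KO animals as well, detection on at least 4 KO-injury and at most 1 KO-control arrays, a pattern that 0.267% of all probes and 0.338% of probes detected on fewer than 10 arrays showed. The 9 were Vsig1, Erfe, Mcph1, Ldhc, 4930519L02Rik, Fgl1, Efcab11, E2f7 and 1 probe without a gene name. With 1 KO-injury array left out and 1 miss allowed among the 4 left, the count was 56, 9, 18, 13 and 63 without arrays 1 to 5. The 9 members meet this looser rule by construction, so that these counts do not test how stable the 9 are. The limit on the total held the count of 9 down, since 48 of the 349 probes met both criteria when that limit was lifted.

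Injury in KO animals was tested on all 28022 probes detected on at least 4 of the 20 arrays, with limma over all 4 groups and Benjamini-Hochberg adjustment. The spread behind each p-value was pooled over the 4 groups, so that it also drew on the wild-type arrays used by the choice. At an adjusted p below 0.01, 105 probes (0.375%) were called and 37 of them (0.132%) were higher after injury. Among the 149 members, 1 was called, E2f7, and it was higher. The next lowest adjusted p among members was 0.0119. At an unadjusted p below 0.05, 47 members (31.5%) were higher and 1, Dsel, was lower, against 7.25% and 12.0% of all probes tested. The members' median difference was 0.63 (log2, KO injury minus KO control), with 118 of 149 above 0, whereas the median over all probes tested was -0.07 and 42.1% were above 0. Without KO-injury array 5, 13 members and 1081 probes (3.86%) were called. With array weights, which give outlying arrays less influence, 33 members and 1854 probes (6.62%) were called. Without KO-control array 1, no member was called, with 46 members and 4901 of all probes tested at an unadjusted p below 0.05. With the KO arrays alone, no probe at all was called, and so no member (lowest limma adjusted p among members = 0.0669). In that fit 47 members and 4590 of all probes tested had an unadjusted p below 0.05.

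E2f7, an atypical E2F factor that represses genes of DNA replication, was the only member called in KO animals. The probe lies at chr10:110227909-110227968 (array design coordinates, build not given in the sources used here). E2f7 read log2 levels of -6.59, -6.63, -6.02, -6.96 and -6.33 on WT-control arrays 1 to 5 and -3.64, -3.83, -3.02, -3.30 and -3.80 on WT-injury arrays 1 to 5. Its levels were -6.81, -6.54, -6.15, -6.35 and -6.74 on KO-control arrays and -3.04, -4.57, -3.07, -4.52 and -5.31 on KO-injury arrays. All 5 KO-injury arrays lay above all 5 KO-control arrays, and KO-injury array 5 was the lowest of its group. The difference was 2.42 (SE 0.35, limma adjusted p = 0.00284), or at least 1.88-fold, since no KO-control array detected the probe and its level there has only an upper bound. The call was lost with normexp background correction, where the difference was 0.56 (limma adjusted p = 0.0422), and without KO-control array 1, where it was 2.34 (limma adjusted p = 0.0108). It was also lost with the KO arrays alone (limma adjusted p = 0.0669) and by the methods' one-way test (adjusted p = 0.134). In both settings no probe at all was called. Within the scan day of slides 1 and 5 E2f7 was not called either, nor was any other probe. The bound for wild-type injury was 2.47-fold and is a description. The second E2f7 probe was detected on all 20 arrays, at -2.58 and 0.83 in WT-control and WT-injury and at -2.60 and 0.26 in KO-control and KO-injury (group means). Across the members, 8 probes had all 5 KO-injury above all 5 KO-control arrays, as had 1.15% of all probes tested: E2f7, 4930519L02Rik, Olr1, Ldhc, Gapt, Hgf, Nsl1 and 1 of the 2 Atad2 probes.

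The promoters of E2f7 and of Orc1, the largest subunit of the origin recognition complex, are shown because E2f7 was the member called in KO animals and Orc1 starts DNA replication in the class described next. Sequences are from RefSeq (GRCm38.p6), run from 250 bases before to 50 bases after the start, and carry in capitals each match on either strand to CCAAT, the NF-Y motif, or to the E2F motif in the forms TTTCCCGC and TTTGGCGC.
E2f7 promoter, chr10:110745189-110745488, plus strand: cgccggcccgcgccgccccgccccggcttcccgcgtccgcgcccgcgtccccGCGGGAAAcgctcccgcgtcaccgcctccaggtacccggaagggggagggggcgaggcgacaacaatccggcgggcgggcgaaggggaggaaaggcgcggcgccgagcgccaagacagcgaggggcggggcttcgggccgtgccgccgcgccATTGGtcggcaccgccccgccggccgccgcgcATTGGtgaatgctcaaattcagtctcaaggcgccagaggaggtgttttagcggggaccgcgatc
Orc1 promoter, chr4:108579204-108579503, plus strand: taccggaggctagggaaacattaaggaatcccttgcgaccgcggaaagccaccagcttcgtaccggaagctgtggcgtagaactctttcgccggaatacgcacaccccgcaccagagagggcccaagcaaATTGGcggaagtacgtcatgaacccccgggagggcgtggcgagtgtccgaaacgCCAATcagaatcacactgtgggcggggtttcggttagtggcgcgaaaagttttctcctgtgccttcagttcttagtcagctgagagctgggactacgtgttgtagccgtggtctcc
Both windows held 2 CCAAT matches, as single or repeated matches did in 41.1% of all genes' promoters, and the E2f7 window also held TTTCCCGC, found in 1.24% of all. A promoter was found for 93 of the 125 named member genes, and since the other genes had no entry no share over the members is given.

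The cell cycle and DNA replication class was the one most often detected in injured KO tracheas. Of its 21 probes, 17 were detected on at least 3 KO-injury arrays and 19 on no KO-control array, and all 21 differences between KO injury and KO control were above 0, with a median of 1.41 and 17 at an unadjusted p below 0.05. KO-injury arrays 1 to 5 detected 3, 20, 17, 20 and 0 of them. Besides E2f7 the class held Orc1 and Ticrr of replication licensing and initiation, the checkpoint kinase Chek1, the mitotic phosphatase Cdc25c and the cohesin regulator Cdca5. It also held the kinetochore subunits Cenpk and Nsl1, the spindle-associated Hmmr, the nucleases Mre11a and Gen1, and Mcm8. Orc1 read log2 levels of -6.98, -6.73, -5.77, -7.19 and -6.54 on WT-control arrays 1 to 5 and -3.95, -3.09, -3.48, -4.03 and -3.94 on WT-injury arrays 1 to 5. Its levels were -7.34, -7.28, -6.59, -7.52 and -7.08 on KO-control arrays and -7.14, -3.08, -5.12, -2.87 and -6.49 on KO-injury arrays. Orc1 was well above the KO-control arrays on KO-injury arrays 2, 3 and 4, lay within their range on array 1 and just above it on array 5. Its difference was 2.22 (SE 0.61, limma adjusted p = 0.0525). For Lrr1, the brightest probe of the class and a substrate receptor that acts at the replication machinery, the levels were -2.09, -2.05, -2.05, -2.77 and -2.61 on WT-injury and -4.96, -1.54, -3.61, -1.73 and -6.23 on KO-injury arrays, against -5.75, -5.69, -5.14, -5.37 and -5.70 on KO-control arrays (difference 1.92, SE 0.69, limma adjusted p = 0.138). Chek1 read -4.86, -3.47, -4.14, -3.01 and -6.22 on KO-injury and -6.25, -6.52, -6.10, -5.25 and -5.37 on KO-control arrays (difference 1.55, SE 0.51, limma adjusted p = 0.0978). Hmmr, a cell cycle list gene, read -4.82, -3.41, -4.07, -2.86 and -5.91 on KO-injury and -5.08, -7.17, -5.99, -5.80 and -5.03 on KO-control arrays (difference 1.60, SE 0.59, limma adjusted p = 0.142). In each of these 3 genes KO-injury array 5 lay within or below the KO-control range. WT-control array 3 detected 10 of the 21 probes, and the other WT-control arrays detected 0 to 3. The list of 58 cell cycle genes had 5 probes called higher and none lower in KO injury among 73 tested.

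Leukocyte receptors and regulators made up the largest named class, and most of its probes were detected on KO-injury arrays 2 and 4. Of its 23 probes, 9 were detected on at least 3 KO-injury arrays, and KO-injury arrays 1 to 5 detected 4, 21, 7, 21 and 0. The median difference between KO injury and KO control was 0.70, with 21 of 23 above 0, 5 at an unadjusted p below 0.05 and none called (lowest adjusted p = 0.0193, for Gapt). Trem1, an activating receptor of neutrophils and monocytes, had 2 member probes, at chr17:46387503-46387562 and chr17:46389066-46389125. Trem1 read log2 levels of -3.78, -6.43, -7.18, -5.88 and -5.01 on WT-control arrays 1 to 5 and -1.38, -2.42, -1.44, -2.79 and 0.41 on WT-injury arrays 1 to 5. Its levels were -6.07, -7.31, -6.45, -6.21 and -5.39 on KO-control arrays and -6.62, -2.60, -6.85, -1.41 and -5.88 on KO-injury arrays. WT-injury did not overlap WT-control, whereas KO-injury arrays 2 and 4 lay within the WT-injury range and arrays 1, 3 and 5 within the KO-control range. The differences of the 2 probes were 1.61 (SE 0.92, limma adjusted p = 0.355) and 2.03 (SE 0.78, limma adjusted p = 0.163). Trem3, its neighbour 12.0 to 13.5 kb away, read -7.14, -4.30, -7.59, -3.53 and -6.46 on KO-injury arrays, and arrays 2 and 4 were again the high ones.

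Slfn4, a Schlafen family gene of activated myeloid cells, read -1.09, -5.06, -2.72, -3.38 and 0.18 on WT-injury and -6.87, -5.22, -5.84, -2.68 and -6.21 on KO-injury arrays. Only KO-injury array 4 was well above background, and the groups overlapped in wild-type animals because WT-control array 1 read -3.37. Gpr84, a receptor for medium-chain fatty acids, read -1.71, -3.85, -4.54, -3.56 and -1.20 on WT-injury and -5.10, -2.53, -5.44, -1.34 and -6.03 on KO-injury arrays, again with arrays 2 and 4 high. Siglecf, an inhibitory receptor of eosinophils and alveolar macrophages, read -3.38, -2.52, -4.89, -3.74 and -2.55 on WT-injury and -5.42, -3.94, -5.42, -3.61 and -6.66 on KO-injury arrays (difference 1.46, SE 0.49, limma adjusted p = 0.108). Olr1, a scavenger receptor for oxidised lipoprotein, was detected on no KO-control array. Olr1 read log2 levels of -6.99, -7.00, -7.45, -7.21 and -6.59 on WT-control arrays 1 to 5 and -2.92, -3.76, -4.16, -4.71 and -1.66 on WT-injury arrays 1 to 5. Its levels were -7.42, -7.30, -6.68, -7.64 and -7.08 on KO-control arrays and -4.13, -3.45, -5.36, -1.62 and -6.46 on KO-injury arrays. All KO-injury arrays lay above all KO-control arrays, and 3 of 5 were well above background. The difference was 3.02 (SE 0.66, limma adjusted p = 0.021), or at least 1.75-fold. Adgre1, the macrophage antigen F4/80, was detected by its member probe on 4 WT-injury and 2 KO-injury arrays, while its second probe was detected on all 20 arrays (group means 0.86 and 2.88 in WT-control and WT-injury, 0.54 and 1.59 in KO-control and KO-injury). The summed signal of the 27 neutrophil list genes on the array ran from 377 to 661 on WT-control and 543 to 723 on WT-injury arrays. It ran from 480 to 781 on KO-control and 421 to 745 on KO-injury arrays, so that these ranges overlapped. A sum weighs the brightest genes most, and the list shares Ltf with the airway secretory and ciliated list. The sum therefore does not measure neutrophils alone. Of the defining genes Elane and Ngp were detected on no array.

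Secreted cytokines, chemokines and growth factors were mostly detected on KO-injury arrays 2 and 4. Of 9 probes, 1 (Tnfsf8) was detected on at least 3 KO-injury arrays, and KO-injury arrays 1 to 5 detected 0, 8, 1, 8 and 0. The median difference between KO injury and KO control was 1.39, with 8 of 9 above 0, 3 at an unadjusted p below 0.05 and none called (lowest adjusted p = 0.0902, for Hgf, the ligand of the Met receptor). Il6, the cytokine that drives the acute phase response, varied most of the class among WT-injury arrays. Il6 read log2 levels of -5.11, -6.58, -7.30, -7.08 and -6.31 on WT-control arrays 1 to 5 and -1.23, -4.36, -3.77, -6.14 and 0.57 on WT-injury arrays 1 to 5. Its levels were -6.29, -7.06, -6.45, -7.23 and -6.38 on KO-control arrays and -6.65, -4.41, -6.00, -3.19 and -6.25 on KO-injury arrays. WT-injury array 4 lay within the WT-control range, and 2 KO-injury arrays, 2 and 4, were well above background. The difference in KO animals was 1.39 (SE 0.92, limma adjusted p = 0.439), and the WT-injury mean was at least 3.58-fold above WT-control as a description. Cxcl2, a neutrophil chemokine, read -3.83, -5.45, -3.80, -4.37 and -1.43 on WT-injury and -7.15, -3.86, -7.64, -2.01 and -6.60 on KO-injury arrays, with arrays 2 and 4 again the only ones above the KO-control range of -7.40 to -5.92. Osm, an interleukin-6 family cytokine, read -3.62, -3.37, -3.20, -3.63 and -2.57 on WT-injury arrays, the narrowest spread among the cytokines but Ereg, and -4.89, -3.20, -5.07, -2.31 and -4.42 on KO-injury arrays (difference 1.03, SE 0.45, limma adjusted p = 0.215). Il24, an interleukin-10 family cytokine, read -6.77, -2.51, -5.57, -2.23 and -6.25 on KO-injury arrays (difference 1.86, SE 0.71, limma adjusted p = 0.158). A second Il24 probe was detected on 5 WT-control, 5 WT-injury, 5 KO-control and 4 KO-injury arrays. Its group means were -4.35 and -2.40 in WT-control and WT-injury and -4.34 and -3.28 in KO-control and KO-injury. Another Hgf probe was likewise detected on 5 WT-control arrays.

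The promoters of Il6 and Cxcl2 are shown because both are known targets of NF-kB. Capitals mark each match on either strand to the 10-base NF-kB consensus, to AP-1 (TGANTCA) or to CCAAT.
Il6 promoter, chr5:30012864-30013163, plus strand: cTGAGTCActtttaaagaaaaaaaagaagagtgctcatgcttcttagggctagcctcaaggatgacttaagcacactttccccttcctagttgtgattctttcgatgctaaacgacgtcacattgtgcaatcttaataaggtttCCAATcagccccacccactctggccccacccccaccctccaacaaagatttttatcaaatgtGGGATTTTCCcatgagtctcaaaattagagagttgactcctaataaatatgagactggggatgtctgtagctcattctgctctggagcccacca
Cxcl2 promoter, chr5:90903649-90903948, plus strand: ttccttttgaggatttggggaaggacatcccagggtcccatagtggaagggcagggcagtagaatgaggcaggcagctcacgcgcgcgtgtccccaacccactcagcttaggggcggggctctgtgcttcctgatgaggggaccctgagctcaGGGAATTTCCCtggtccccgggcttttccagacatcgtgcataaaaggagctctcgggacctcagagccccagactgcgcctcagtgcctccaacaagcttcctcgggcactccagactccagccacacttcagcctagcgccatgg
The Il6 window held 1 match to each of the 3 motifs. The Cxcl2 window held 1 stretch that matches the NF-kB consensus on both strands in overlapping frames. The NF-kB consensus was found in 5.14% and the AP-1 motif in 8.97% of all genes' promoters, so that a match is a description of these windows.

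Csf2, which encodes the granulocyte-macrophage growth factor GM-CSF, and Saa1, an acute phase apolipoprotein, were detected on 4 WT-injury and no KO-injury arrays. Csf2 read log2 levels of -4.64, -6.19, -4.29, -6.66 and -4.94 on WT-control arrays 1 to 5 and -3.07, -4.61, -4.33, -4.98 and -2.67 on WT-injury arrays 1 to 5. Its levels were -5.61, -6.83, -6.08, -5.50 and -4.92 on KO-control arrays and -4.86, -6.01, -6.69, -5.77 and -5.53 on KO-injury arrays. WT-control and WT-injury overlapped, and KO-injury and KO-control overlapped almost fully (difference 0.02, SE 0.51, limma adjusted p = 0.991). As a description, the WT-injury mean was at least 2.15-fold above KO-injury. Saa1 read log2 levels of -5.34, -5.60, -6.81, -6.31 and -5.84 on WT-control arrays 1 to 5 and -3.48, -5.36, -4.49, -4.50 and -1.51 on WT-injury arrays 1 to 5. Its levels were -5.16, -6.53, -6.61, -6.04 and -4.25 on KO-control arrays and -5.83, -5.84, -5.52, -5.33 and -6.35 on KO-injury arrays. Here too the KO groups overlapped, with a difference of -0.05 (SE 0.56, limma adjusted p = 0.972) and a WT-injury mean at least 2.28-fold above KO-injury. A second Saa1 probe was detected on all 20 arrays, with group means of -1.34 and 2.33 in WT-control and WT-injury and -1.22 and -0.86 in KO-control and KO-injury. A probe for a transcript with no gene symbol, 5.4 kb from the Saa1 probe on chromosome 7, was detected on 4 WT-injury and 1 KO-injury arrays. Serum amyloid A genes are close in sequence, and the arrays' probes may not tell them apart.

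Trim30b, a TRIM family gene on chromosome 7, was dim on every KO array. Trim30b read log2 levels of -4.06, -6.40, -7.39, -5.93 and -6.55 on WT-control arrays 1 to 5 and -2.52, -4.93, -3.17, -4.65 and -1.06 on WT-injury arrays 1 to 5. Its levels were -7.30, -7.23, -6.64, -7.56 and -7.04 on KO-control arrays and -6.75, -7.44, -7.59, -7.39 and -6.26 on KO-injury arrays. None of the 10 KO arrays detected it, and the WT-injury mean was at least 3.47-fold above KO-injury, a comparison that holds arrays used by the choice. In all, 5 members were detected on no KO array: Trim30b, Csf2 and 3 probes without a gene symbol. Gpr135, an orphan receptor, was detected on 4 WT-injury, 1 KO-control and no KO-injury arrays, at -4.83 ± 0.46 in WT-injury and -6.47 ± 0.87 in KO-injury (SD, n = 5).

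**Figure D3:**
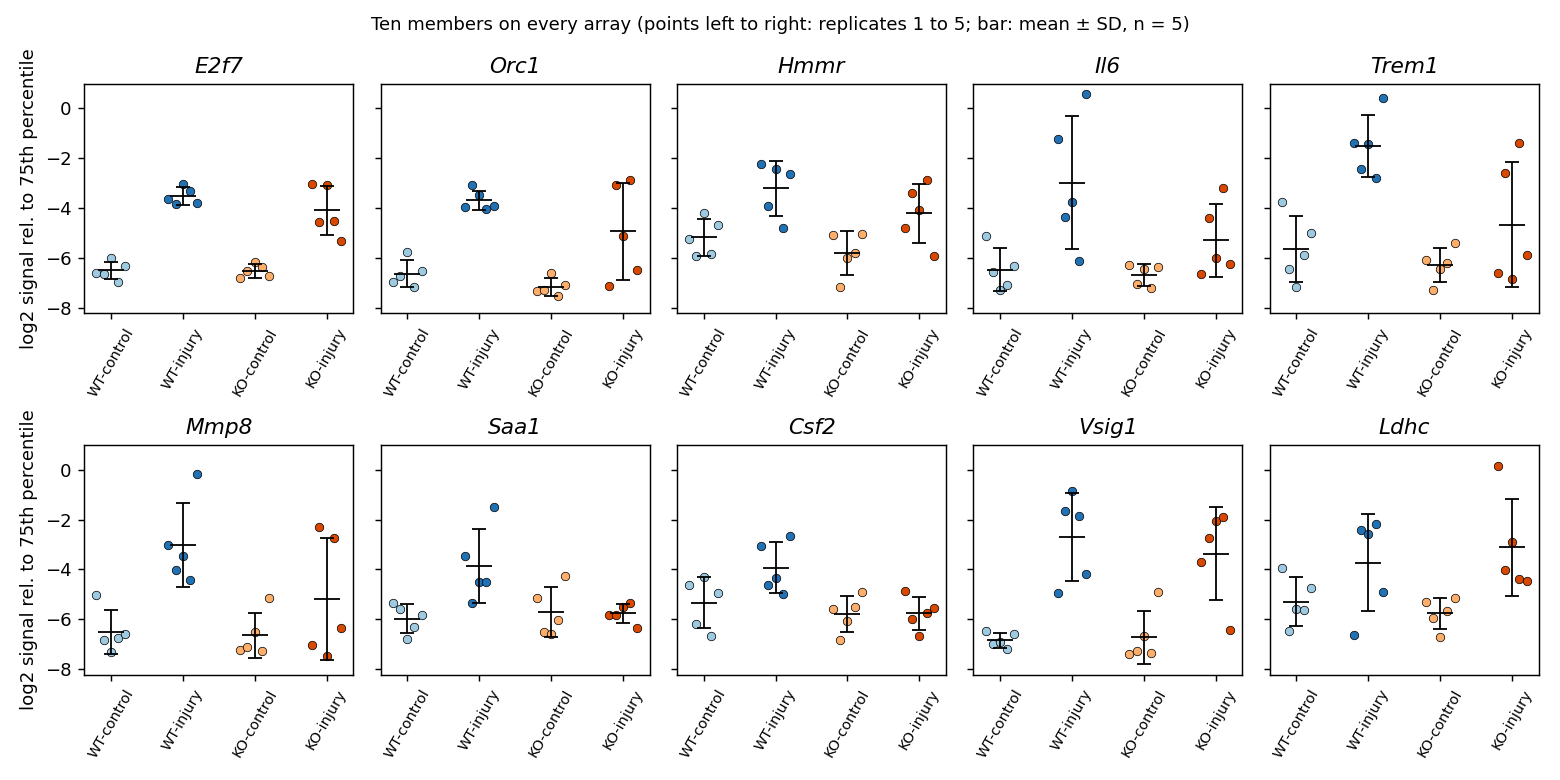
Log2 signal relative to the array's 75th percentile (vertical axis) of 10 members on every array, by group (points left to right, replicates 1 to 5; bars, mean and SD, n = 5). E2f7 lies above KO-control on all KO-injury arrays, Trem1 on KO-injury arrays 2 and 4, and Saa1 and Csf2 stay among the KO-control levels.

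Among proteases and matrix proteins, all 7 probes were detected on KO-injury arrays 2 and 4, 3 on array 3 and none on arrays 1 and 5. Mmp8, the neutrophil collagenase, read -3.01, -4.03, -3.47, -4.43 and -0.18 on WT-injury and -7.05, -2.31, -7.48, -2.76 and -6.35 on KO-injury arrays (difference 1.47, SE 0.94, limma adjusted p = 0.417). Mmp10, a stromelysin of migrating epithelial cells, read -4.48, -5.26, -3.98, -4.63 and -1.0 on WT-injury and -5.61, -4.06, -5.44, -4.71 and -5.10 on KO-injury arrays, and WT-injury array 5 was far above the rest of its group. Mmp25, a membrane-anchored leukocyte protease, had KO groups at -5.65 ± 0.54 and -5.75 ± 1.47 (KO-control and KO-injury, SD, n = 5). The members Pappa, a protease of insulin-like growth factor binding proteins, Trim67, Gpr135, Nfrkb and Ccnb1ip1 had the lowest named WT-injury levels, from -5.07 to -4.79, and for Trim67 and Ccnb1ip1 the WT-injury mean was below the WT-control mean.

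Vsig1, a junctional adhesion protein of gastric epithelium and testis, was detected on 4 KO-injury arrays and no KO-control array. Vsig1 read log2 levels of -6.46, -6.99, -6.93, -7.21 and -6.58 on WT-control arrays 1 to 5 and -4.94, -1.66, -0.84, -1.87 and -4.20 on WT-injury arrays 1 to 5. Its levels were -7.41, -7.28, -6.67, -7.37 and -4.90 on KO-control arrays and -3.72, -2.74, -2.04, -1.88 and -6.44 on KO-injury arrays. It was high on WT-injury arrays 2, 3 and 4 and on KO-injury arrays 1 to 4, and KO-injury array 5 lay within the KO-control range. The difference was 3.36 (SE 0.82, limma adjusted p = 0.032), or at least 3.13-fold. 4930519L02Rik read -4.40, -2.76, -1.89, -2.05 and -4.69 on WT-injury and -1.11, -3.22, -2.59, -3.69 and -5.61 on KO-injury arrays, all above its KO-control arrays (difference 3.35, SE 0.64, limma adjusted p = 0.0119). Ldhc, the testis lactate dehydrogenase, read -6.62, -2.44, -2.57, -2.17 and -4.90 and 0.15, -4.01, -2.91, -4.37 and -4.47 on the same arrays, and Cga, the common subunit of pituitary glycoprotein hormones, read -5.70, -2.29, -2.33, -1.80 and -4.87 and 0.14, -3.89, -2.27, -5.53 and -4.41. KO-injury array 1 was the highest of its group in all 3, while WT-injury arrays 1 and 5 were the lowest of theirs. Fgl1, a fibrinogen-like protein of liver, read -1.44, -3.88, -3.16, -4.12 and -6.43 on KO-injury arrays (difference 2.53, SE 0.62, limma adjusted p = 0.033), and its second probe was detected on all 20 arrays at group means of 0.11 to 0.50.

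**Figure D4:**
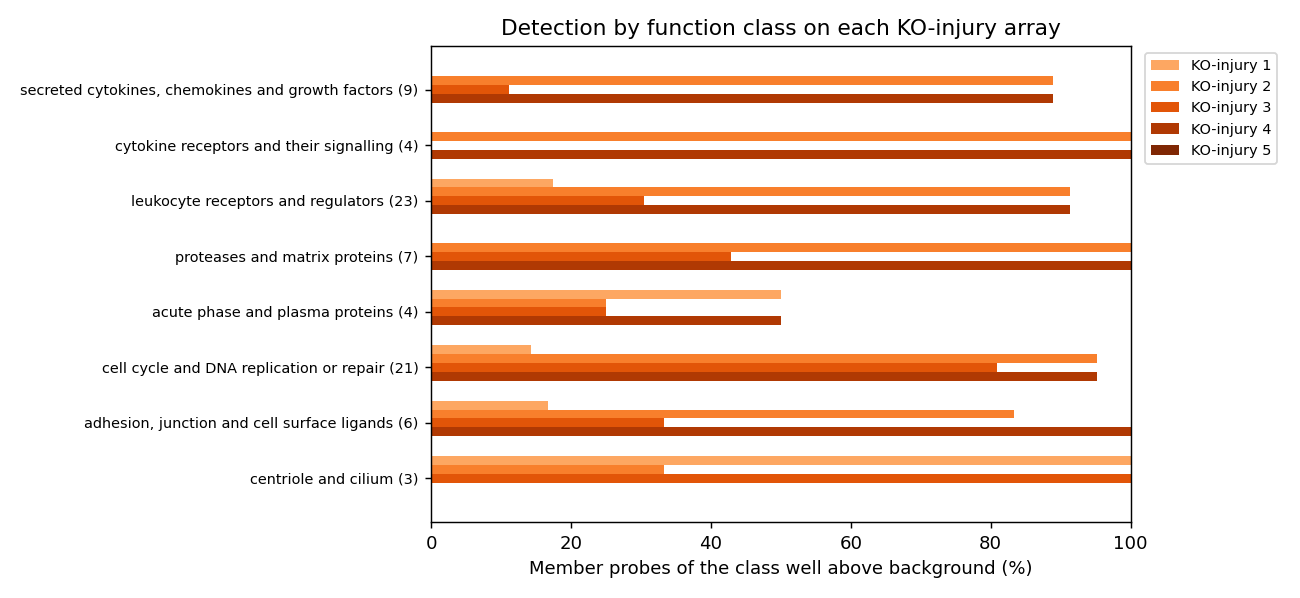
Share of the member probes of each function class (vertical axis, number of probes in parentheses) that were well above background on KO-injury arrays 1 to 5 (bars; horizontal axis, percent). On array 3 the cell cycle class reaches 17 of 21 probes and the secreted class 1 of 9, and array 5 detects none of the named classes.

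Scan day and slide were compared with the order of the arrays within each group. In 58 members (38.9%) both WT-injury arrays of slides 1 and 5 lay above all 3 of slides 2, 3 and 4, against 28.0% of all probes tested, and in 14 (9.40%) below, against 24.0%. Among KO-injury arrays the same slides lay above in 5 members (3.36%), against 21.6%, and below in 66 (44.3%), against 23.3%. Uninjured arrays also had few members below. In WT-control the same slides lay above in 44 members (29.5%), against 23.8%, and below in 1 (0.671%), against 14.8%. In KO-control they lay above in 40 (26.8%), against 27.1%, and below in 6 (4.03%), against 19.1%. By class, slides 1 and 5 were above in WT-injury for 15 of 23 leukocyte probes, 5 of 9 secreted factors and 4 of 4 cytokine receptor probes, and for none of the 21 cell cycle probes, of which 3 were below. In KO-injury, 14 of these 21 were below. In WT-control, slides 1 and 5 were above for 11 of 23 leukocyte, 2 of 9 secreted, 2 of 4 cytokine receptor and 4 of 21 cell cycle probes. In KO-control these counts were 7, 1, 2 and 5. Within the scan day of slides 2, 3 and 4, the members' median difference between KO injury and KO control was 1.23, with 131 above 0 and 17 called of 1021 probes called (3.64% of those tested). Within that of slides 1 and 5, it was -0.16, with 64 above 0, and the median over all probes tested was -0.11. No probe at all was called there, and so no member. At an unadjusted p below 0.05 were 30 members, of which 5 were higher, and 2558 of all probes tested. With the slide as a block, E2f7 alone of the members was called, and with the slide as a random block E2f7 and 4930519L02Rik (limma adjusted p = 0.0051) were called.

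WT-control array 3 carried most of the wild-type control detections, with 34 of 66. Its summed signal of the 56 squamous and repair keratinocyte list genes was 2193, against 165 to 236 on the other WT-control arrays, and 6 members were brighter there than on any WT-injury array (Il1f9, Dynap, Fabp5, Troap, Oacyl and Trim67). Il1f9 (interleukin-36 gamma, an epithelial alarm cytokine) read -4.43, -6.79, 0.14, -5.84 and -6.49 on WT-control arrays and -3.74, -3.58, -3.74, -4.69 and -1.5 on WT-injury arrays. Dynap read -7.00, -6.99, -0.83, -7.19 and -6.55 on WT-control arrays, -2.47, -2.68, -3.12, -3.24 and -4.12 on WT-injury and -5.63, -0.94, -3.38, -1.20 and -6.10 on KO-injury arrays. Fabp5, an epidermal fatty acid binding protein, read -6.48, -6.66, -1.34, -6.20 and -6.32 on WT-control and -3.40, -3.54, -4.88, -4.47 and -2.81 on WT-injury arrays. The part of WT-control array 3 in these levels was not tested.

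Counted by gene, 0.524% of the 27670 names on the array had a member probe. Of 22 gene lists, the share was largest for cytokines, with 5 of 34 genes (Csf2, Il1f9, Il24, Il6 and Osm), matrix remodelling, with 3 of 26 (Mmp8, Mmp10 and Mmp25), and neutrophil markers, with 3 of 27 (Mmp8, Trem1 and Trem3). Cell cycle had 3 of 58 (Cdc25c, E2f7 and Hmmr), squamous and repair keratinocyte 2 of 56, and chemokines 1 of 33, macrophage and monocyte 1 of 28, acute phase and antimicrobial 1 of 25, cytokine and chemokine receptors 1 of 38, EGF family ligands 1 of 10 (Ereg) and mast cell and eosinophil 1 of 15. The 11 other lists had none, among them interferon-stimulated genes (0 of 23), T and NK cell (0 of 25), B and plasma cell (0 of 14), skeletal and cardiac muscle (0 of 18) and thyroid (0 of 8). Many list genes had a probe that could not be a member because it was already detected at rest. In all, 28 of 33 chemokines and 45 of 58 cell cycle genes had a probe detected on at least 4 WT-control arrays, as had 15 of 34 cytokines. Another probe of such a gene could still be a member, as for E2f7 and Il24. Cytokines such as Il10, Il17a, Il22 and Il23a were detected on no array.

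Another member lay within 100 kb in the array's coordinates for 19 names, a count for which no value over all probes was computed. On chromosome 17 these were Trem1 and Trem3 with A530064D06Rik. The other pairs were Mmp8 and Mmp10 (58.2 kb apart, chromosome 9), Slfn1 and Slfn4 (55.6 kb, chromosome 11), Cd300e and Cd300ld3 (20.5 kb, chromosome 11), Mmp25 and Cldn6 (51.9 kb, chromosome 17), Gpr84 and Gtsf1 (94.2 kb), Alyref2 and Cd244a (73.6 kb), Ticrr and LOC677447 (35.9 kb), and Saa1 with the transcript 5.4 kb away. Of the pairs within a gene family, Cd300e and Cd300ld3 had differences of -0.37 and 0.09 between KO injury and KO control, and Slfn1 and Slfn4 0.70 and 1.5, none called. The genes with 2 member probes were Trem1, Cd80, Atad2 and Sh2d5. A530064D06Rik was brightest on KO-injury array 5, at -0.83, where its neighbours Trem1 and Trem3 read -5.88 and -6.46.

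Near the limits of the rule, 96 members were detected on 4 WT-injury arrays (median WT-injury level -4.33), and 217 probes with 3 WT-injury arrays that otherwise met it had a median of -4.77. The 66 members with 1 WT-control array had a median WT-control level of -5.31, and the 9 probes with 2 such arrays -4.71. The 50 members at 9 arrays in all had a median WT-injury level of -4.27, and the 61 probes at 10 arrays -3.97. The 200 probes set aside by the limit on the total included 38 detected on at least 4 KO-control arrays and 95 detected on at least 4 KO-injury arrays; KO-injury arrays 1 to 5 detected 100, 198, 190, 187 and 10 of them. In the reverse direction, 59 probes met the mirrored rule, detected in uninjured and not in injured wild-type tracheas. The corresponding counts in KO animals, with the same limit on the total, were 51 newly detected and 97 no longer detected.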

How the data were processed

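Whole-trachea RNA of 20 samples was hybridised to 1-colour Agilent mouse arrays. Per the file headers, the deposited intensity values were background-subtracted signals from Agilent Feature Extraction with a flag per spot for signal well above background. The authors' series value table, deposited as normalized intensity, served as an alternative. Intensities were taken as log2 after outlier spots (1960 over all arrays) were left out and spots of a probe averaged, and each array was set to its 75th percentile. A probe counted as detected when at least 50% of its spots carried the flag. KO injury was compared with KO control with limma 3.58.1 in R 4.3.3 (4 group means, all 20 arrays, Benjamini-Hochberg adjustment, threshold 0.01) on 28022 probes, and the fit was tested on simulated data. A fold given as "at least" sets the brighter mean against, per array, the higher of the lowest signal well above background and the probe's own. The number of arrays limits the precision.

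Genes were named from RefSeq by accession or symbol, and 8455 of 41174 probes kept the array name. Named members were those in a gene list, the 15 brightest after wild-type injury, the 10 detected on the most KO-injury arrays, those on no KO-injury array, those called, and the 5 dimmest. Other genes named were chosen after their values were seen. The members, lists, classes and tests were chosen with earlier results of these data known. Alternatives covered the flag, the limit on the total, background correction, normalization, filter, blocks for slide and scan day, array weights, the KO arrays alone, the methods' one-way test and leaving out each array. The fits within a scan day were added after seeing the data.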

Additional observations from a re-analysis of the deposited data

Results flagged for a closer look

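Of 112 groups of 5 values, in 28 probes given array by array, 4 had 1 array far from the other 4, measured by its gap to the nearest array over the range of the group. The limit used is one that about 1 in 20 groups would pass by chance. All 4 were WT-control groups. Slfn4 read -3.37 and Trem3 read -4.07 on WT-control array 1, with gaps of 0.849 and 0.736 of the range. Dynap read -0.83 and Fabp5 read -1.34 on WT-control array 3, with gaps of 0.899 and 0.914 of the range.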

How the results depend on the processing

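The set held 84 probes with the weaker positive-and-significant flag, 349 without the limit on the total and 32 when all 5 WT-injury and no WT-control arrays were asked for. Leaving out a wild-type array gave 153 to 351 probes, with 1 miss still allowed among the WT-injury arrays left. All 149 members meet this looser rule by construction, so that these counts do not test how stable the set is. Members that met the criterion in KO animals numbered 48 without the limit and 9 to 63 when a KO array was left out. By construction the latter count cannot fall below 9. Members called in KO injury numbered 0 with normexp (16 at an unadjusted p under 0.05), with the KO arrays alone (47) or by the methods' one-way test (31), 2 with the scan day as a block or the slide as a random block, 33 with array weights, 17 within the scan day of slides 2 to 4, 0 within the other, and 0 to 13 when an array was left out. All probes called numbered 111 with normexp (4744 at an unadjusted p under 0.05), against 105 in the main fit. They numbered 68 after quantile normalization, 59 with no filter, 358 with the scan day block, 319 with the random block and 1854 with array weights. They numbered 1021 and 0 within the scan days, 0 with the KO arrays alone (4590 unadjusted) or the methods' test (4361), and 8 to 1081 when an array was left out. E2f7 lost its call with normexp (adjusted p = 0.0422, limma), the KO arrays alone (0.0669), the methods' test (0.134), within the scan day of slides 1 and 5 (0.415) and without KO-control array 1 (0.0108).

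Differences between KO injury and KO control near 0 changed sign. Csf2 (0.02) became -0.06 with normexp, -0.02 with outlier spots kept, with the value table, with array weights and within the scan day of slides 2 to 4, and -0.24 to 0.25 when an array was left out. Saa1 (-0.05) became 0.06 after quantile normalization, 0.34 with array weights, 0.83 within that scan day, and -0.27 to 0.31 when an array was left out. Trim30b (0.07) became -0.20, -0.15 and -0.33 with normexp, array weights and within that scan day, and -0.14 to 0.20 when an array was left out. Within the scan day of slides 1 and 5, Trem1 was -0.52, Il6 -0.11, Mmp8 -0.51 and Hmmr -0.31. The causes were not tested.

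Same-slide samples correlated at -0.24 to 0.43 in their deviations from the group means (median 0.21 over 30 pairs, -0.07 over other slides). The median was thus higher on the same slide, while the main fit held no term for the slide. With the replicate number as a block, 118 probes and 1 member were called, and with the slide as a random block 319 probes and 2 members.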
